A study of Mus musculus with 63 samples.

Results

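The microRNAs of plasma exosomes were examined at an early age in a mouse model of glycogen storage disease type 1a. LS-G6pc-/- mice, which lack glucose-6-phosphatase in the liver, were compared with wild-type (WT) mice at 4-6 months of age. The comparison took every column of the raw table that the labels place in the second of 6 age groups, which gave 6 LS-G6pc-/- mice and 3 WT mice of the 63 mice of the series (45 LS-G6pc-/- and 18 WT). No tumor and no amyloidosis were recorded for any of these 9 mice, so the 2 groups differed in genotype only as far as the labels show. Exosomes were isolated from plasma, and each mouse gave 1 TaqMan array card with 375 microRNA assays and 9 control wells. The time given in the labels is 1 day throughout, and the age groups are only numbered. The age in months was therefore taken from the methods. The transgene that deletes G6pc is not given in the sources used here, and the deletion itself could not be checked because the cards hold no assay for a messenger RNA. Whether mice shared a litter or a cage is not stated.

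MicroRNAs are short RNAs that bind messenger RNAs through a seed near their 5′ end and lower the output of their targets. Cells release part of them in exosomes, small membrane vesicles, so plasma carries microRNAs of red cells, platelets, leukocytes, endothelium and solid organs. Glucose-6-phosphatase carries out the last step of glucose release by the liver, and its loss leaves the hepatocyte loaded with glycogen and fat. miR-122 and miR-192 are characteristic of hepatocytes, miR-451 and miR-486 of red cells, miR-223 of platelets and myeloid cells, and miR-145 of smooth muscle.

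The Ct of a well is the number of PCR cycles its signal needs to pass a threshold, and each cycle fewer means roughly a doubling of the template. A Ct from 14 to 32 counted as measured, as in the methods of the study. The level of a microRNA is the mean measured Ct of the card minus the Ct of the assay, so a higher level means more of the microRNA relative to the rest of the same card, on a log2 scale. Since a level is relative to the card, fewer exosomes, less RNA per exosome and a different mix of exosomes cannot be told apart.

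Mature sequences of 58 assays were found in RefSeq (GRCm38.p6), of which 42 were among the 58 microRNAs measured on all 9 cards. Where the name of an assay gives no arm, the arm that is usually kept was taken. Those shown first belong to the assays with the smallest p-values between the genotypes. They are written 5′ to 3′ with the seed, bases 2 to 8, in capitals, and miR-29c is added because it shares its seed with miR-29a but was read from its own well.
miR-574-3p: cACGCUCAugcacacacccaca
miR-342-3p: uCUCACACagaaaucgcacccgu
miR-29a-3p: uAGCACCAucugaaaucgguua
miR-29c-3p: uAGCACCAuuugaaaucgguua
miR-223-3p: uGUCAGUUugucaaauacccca
miR-203-3p: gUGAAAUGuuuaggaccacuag
miR-15b-5p: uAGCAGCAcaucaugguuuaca
miR-139-5p: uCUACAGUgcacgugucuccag

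Apart from the miR-29 pair, no seed was shared among the microRNAs shown. miR-574-3p lies at chr5:64970364-64970385 on the plus strand, inside the spans of Tlr6 and Fam114a1. miR-342-3p lies at chr12:108658680-108658702 on the plus strand, inside Evl, and miR-15b at chr3:69009775-69009796 on the plus strand, inside Smc4. miR-139-5p lies at chr7:101475382-101475403 on the plus strand, inside Pde2a. miR-223 lies at chrX:96242884-96242905 on the plus strand, within the long noncoding RNA F630028O10Rik, and miR-29c at chr1:195037600-195037621 on the plus strand, within the long noncoding RNA A330023F24Rik. miR-29a at chr6:31062673-31062694 on the minus strand and miR-203 at chr12:112130927-112130948 on the plus strand lie inside no other gene of the annotation used. Whether these positions are exonic or intronic was not examined.

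A second set is shown because its members share 1 seed and yet had differences of both signs over all 9 mice. The 6 microRNAs come from the miR-17 clusters, which promote cell growth.
miR-17-5p: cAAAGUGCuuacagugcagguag
miR-20a-5p: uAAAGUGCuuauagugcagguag
miR-20b-5p: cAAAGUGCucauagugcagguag
miR-93-5p: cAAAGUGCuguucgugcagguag
miR-106a-5p: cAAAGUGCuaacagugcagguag
miR-106b-5p: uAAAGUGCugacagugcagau

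The hepatocyte pair and 2 microRNAs that stood out in detection complete the sequences. miR-192 and miR-215 have the same seed but lie on chromosomes 19 and 1.
miR-192-5p: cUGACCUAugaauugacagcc
miR-215-5p: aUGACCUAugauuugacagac
miR-214-3p: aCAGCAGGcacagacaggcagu
miR-340-3p: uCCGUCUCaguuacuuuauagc

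The cards of the 2 genotypes differed in how evenly they were filled. LS-G6pc-/- mice 1 to 6 had 120, 159, 84, 142, 91 and 160 measured wells, and the 3 WT mice 153, 153 and 146. LS-G6pc-/- mice 3 and 5 were far below every WT card, while mice 2 and 6 were above all of them. The mean was 126 ± 33.2 in LS-G6pc-/-, against 150.7 ± 4.04 in WT (SD, n = 6 and 3), a difference of -24.7 wells (two-sided exact permutation test over 84 assignments, p = 0.298). Over the whole series the cards held 68 to 192 measured wells. The mean measured Ct, which sets the zero of the level, was 27.46 ± 0.732 in LS-G6pc-/- and 27.45 ± 0.129 in WT mice (same test, p = 0.988).

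U6, a small nuclear RNA used as a control, passed the threshold later on most LS-G6pc-/- cards. The mean Ct of its 4 wells was 23.52, 18.20, 22.59, 20.02, 20.94 and 20.15 in LS-G6pc-/- mice 1 to 6, against 18.05, 19.46 and 19.18 in WT mice 1 to 3. LS-G6pc-/- mouse 2 alone fell inside the WT range. The means were 20.9 ± 1.92 in LS-G6pc-/- and 18.9 ± 0.744 in WT mice, a difference of 2.01 cycles (same test, p = 0.119, or 0.357 when adjusted over the 3 card measures, where 0.0119 is the smallest p that 6 against 3 mice can give). The plant control ath-miR159a gave no Ct on any of the 9 cards.

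**Figure D1:**
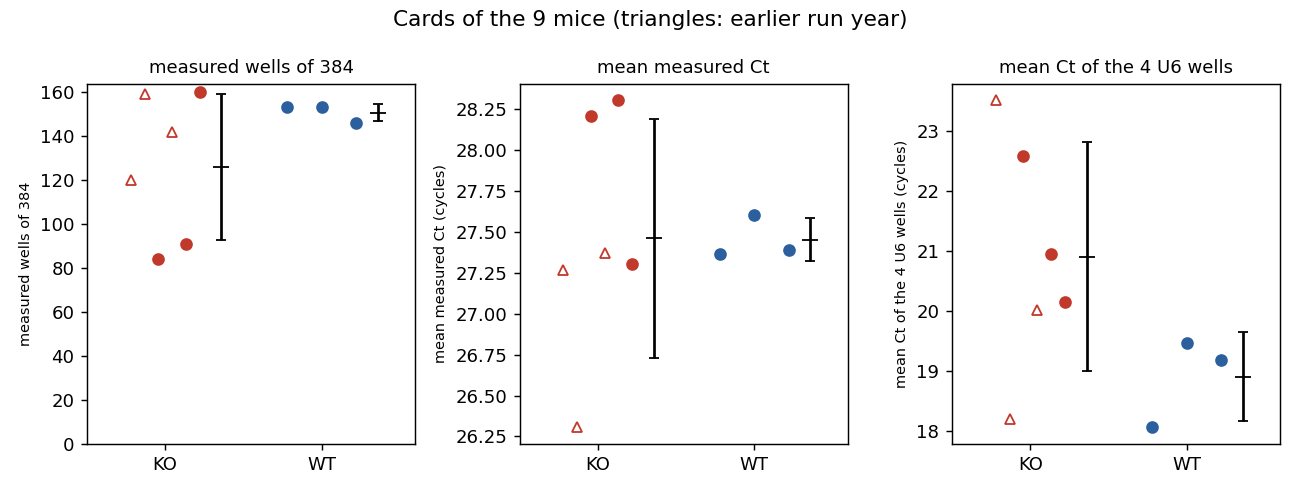
Measured wells (left), mean measured Ct (middle) and mean Ct of the 4 U6 wells (right) of each card, with LS-G6pc-/- mice (KO, red) left of WT mice (blue), triangles for cards of the earlier run year and bars for the mean ± SD. LS-G6pc-/- cards ranged from 84 to 160 measured wells, and the 3 WT cards from 146 to 153.

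The calendar year stored with each card divided the LS-G6pc-/- mice. Mice 1, 2 and 4 were run in an earlier year, and mice 3, 5 and 6 in the same, later year as the 3 WT mice, so the leading values are also given for that year alone. Both cards with the fewest measured wells belonged to the later year, where LS-G6pc-/- mice averaged 111.7 ± 42.0 measured wells, and WT mice 150.7 ± 4.04 (SD, n = 3 each; exact permutation test, p = 0.40). The mean U6 Ct in that year was 21.2 ± 1.25 in LS-G6pc-/- and 18.9 ± 0.744 in WT mice (p = 0.10, the smallest that 3 against 3 mice can give).

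The cards of LS-G6pc-/- mice 1 and 2, both of the earlier year, stood apart in single wells. In 21 of the 375 assays both had a lower Ct than each of the 7 other cards, in 13 of them by more than 4 cycles, and in 7 assays both had a higher Ct than each other card (40 standing for a well without a Ct). Of the 13 none was among the microRNAs tested below, whereas 3 of the 7 were, namely miR-145, miR-342-3p and miR-29a. The differences of these 3 and of several other microRNAs are therefore also given without these cards. These 2 cards were singled out after their values were seen.

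Of the 375 microRNA assays, 58 were measured on all 9 cards, 135 on some and 182 on none. All 6 LS-G6pc-/- mice gave a Ct in range for 59 assays, and all 3 WT mice for 125. Only the 58 could be compared without filling in missing values, and they are the microRNAs tested. Being measured on every card, including the 2 least filled ones, they are the microRNAs with low Ct and no sample of the rest.

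In no microRNA did the 2 genotypes differ at an adjusted p under 0.05. Of the 58 tested, 0 passed as lower (0.0%) and 0 as higher (0.0%) in limma with Benjamini-Hochberg adjustment, and the smallest adjusted p was 0.691. An unadjusted p under 0.05 was reached by 3 (5.17%), namely miR-145, miR-486 and miR-574-3p. The 6 against 3 mice left wide intervals, whose bounds lay 1.90 to either side of the estimate at the median, on the log2 scale, with a median standard error of 0.92. Differences of this size or smaller in a single microRNA could thus be missed here, and so could larger ones. The estimate of -2.63 for miR-145 had an adjusted p of 0.691 (limma).

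Most estimates nevertheless had the same sign. The mean level was lower in LS-G6pc-/- than in WT mice for 51 of the 58 and higher for 7, with a median difference of -0.78, or 58.3% of the WT level, and a range of -2.63 to 0.98. Within the later year the median was -1.03, 54 were lower and 4 higher, and 53 of the 58 kept the sign they had with all 9 mice. This common shift depended on what was subtracted. With the mean of the assays measured on all 9 cards subtracted instead, 26 were lower and 32 higher around a median of 0.04, and with U6 subtracted 3 were lower and 55 higher around a median of 1.22. A shift shared by all microRNAs thus cannot be read from these cards, while differences between microRNAs stay the same under each of these subtractions.

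The shift was not shared by all LS-G6pc-/- mice. Set against the WT mean, the median microRNA was at -1.07, 0.34, -2.42, 0.04, -1.76 and 0.65 in LS-G6pc-/- mice 1 to 6. Mouse 3 lay below all 3 WT mice for 55 of the 58 microRNAs and mouse 5 for 50, whereas mouse 6 lay above all of them for 34 and mouse 2 for 28. The 2 mice with the lowest medians had the 2 least filled cards, and without them the median difference was -0.07, with 31 microRNAs lower and 27 higher. The part of card filling in the shift was not tested. Without mice 1 and 2 the median was -0.75, with 52 lower and 6 higher. There 1 microRNA had an unadjusted p under 0.05 (limma, with 1 standard error shared by all microRNAs).

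**Figure D2:**
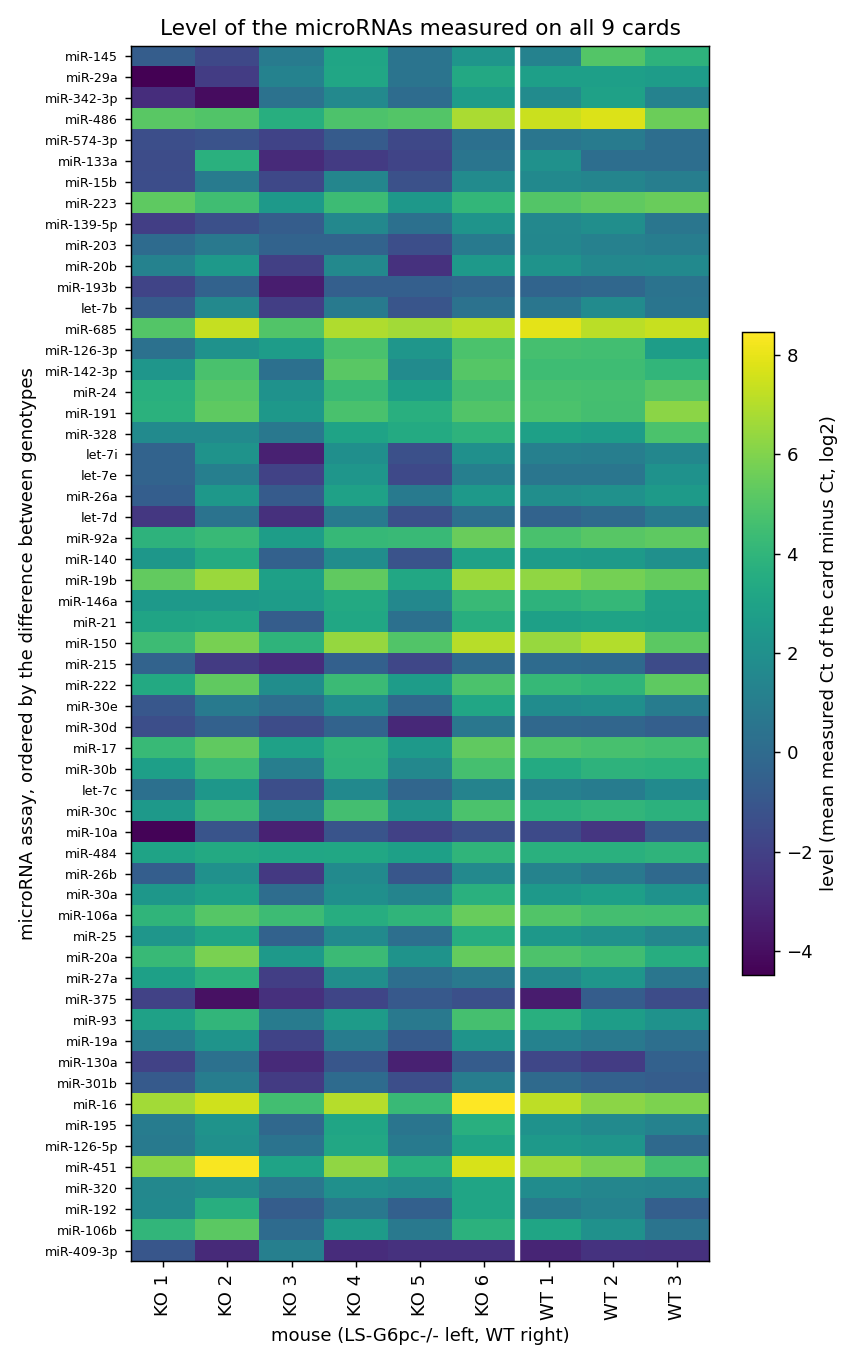
Level (color, log2, mean measured Ct of the card minus Ct) of the 58 microRNAs measured on all 9 cards (rows, ordered by the difference between genotypes) in the 6 LS-G6pc-/- mice and the 3 WT mice (columns). The columns of LS-G6pc-/- mice 3 and 5 are darker than the others in most rows, with medians of -2.42 and -1.76 against the WT mean. In the rows of miR-145, miR-29a and miR-342-3p mice 1 and 2 are darkest, and in that of miR-409-3p mouse 3 is lightest, at 1.11.

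The SD of the level was larger among the 6 LS-G6pc-/- mice than among the 3 WT mice for 54 of the 58 microRNAs, with a median SD of 1.49 in LS-G6pc-/- and 0.50 in WT mice. In the later year, with 3 mice in each group, it was larger for 55 of 58, with a median of 1.61 in LS-G6pc-/- mice. Part of this spread was the shift of whole cards. With the mean of the assays measured on all 9 cards subtracted, the SD was larger in LS-G6pc-/- mice for 46 of 58, with a median of 0.782 in LS-G6pc-/- and 0.465 in WT mice, and in the later year for 35 of 58, with a median of 0.545 in LS-G6pc-/- mice. Over the 58 microRNAs, the levels of 2 LS-G6pc-/- mice correlated with a Pearson r of 0.610 to 0.937 (15 pairs), those of an LS-G6pc-/- and a WT mouse with 0.704 to 0.958 (18 pairs), and those of 2 WT mice with 0.890 to 0.943 (3 pairs). These correlations are across microRNAs of single cards and describe the cards. LS-G6pc-/- mice 1 and 2 were the least like WT, at 0.740 to 0.822 and 0.704 to 0.827, although mouse 2 had a well-filled card.

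miR-145, a microRNA of smooth muscle that restrains tumor cell growth, had the largest difference. Its level was -0.67, -1.67, 0.88, 3.12, 0.51 and 2.27 in LS-G6pc-/- mice 1 to 6, against 1.25, 4.97 and 3.90 in WT mice 1 to 3. LS-G6pc-/- mice 4 and 6 lay inside the WT range and the other 4 below it, and WT mouse 1 was well below WT mice 2 and 3. The means were 0.74 ± 1.78 in LS-G6pc-/- and 3.37 ± 1.92 in WT mice, a difference of -2.63 (standard error 1.05, p = 0.0207, adjusted p = 0.691, limma), or 16.1% of the WT level. It was -2.15 in the later year (unadjusted p = 0.047) and -1.68 without LS-G6pc-/- mice 1 and 2 (unadjusted p = 0.0926). Without WT mouse 2, the highest WT value, it was -1.83 (unadjusted p = 0.146). In the later year alone, limma gave every microRNA the same standard error of 1.08, and without mice 1 and 2 the same 0.99. Unadjusted p-values of these fits thus do not reflect the spread of the single microRNA, here or elsewhere.

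miR-486, made in red cell precursors, was at 5.14, 4.93, 3.65, 4.83, 5.01 and 6.81 in LS-G6pc-/- mice 1 to 6, against 7.43, 7.80 and 5.57 in WT mice. All LS-G6pc-/- mice but mouse 6 lay below the lowest WT mouse. The means were 5.06 ± 1.01 in LS-G6pc-/- and 6.93 ± 1.19 in WT mice, with a difference of -1.87 (standard error 0.87, p = 0.0427, adjusted p = 0.691, limma). It was -1.78 in the later year and -1.86 without LS-G6pc-/- mice 1 and 2.

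miR-574-3p was at -1.39, -1.16, -1.86, -0.75, -1.66 and 0.29 in LS-G6pc-/- mice 1 to 6, against 0.62, 0.93 and 0.19 in WT mice. The groups overlapped only through LS-G6pc-/- mouse 6, which lay just above WT mouse 3. Its difference of -1.67 (standard error 0.80, p = 0.0498, adjusted p = 0.691, limma) was -1.66 in the later year alone. All WT mice are of that year, so the earlier year has no difference of its own. With the mean of the assays measured on all 9 cards subtracted, the difference of miR-574-3p was -0.85 (p = 0.079 before adjustment).

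**Figure D3:**
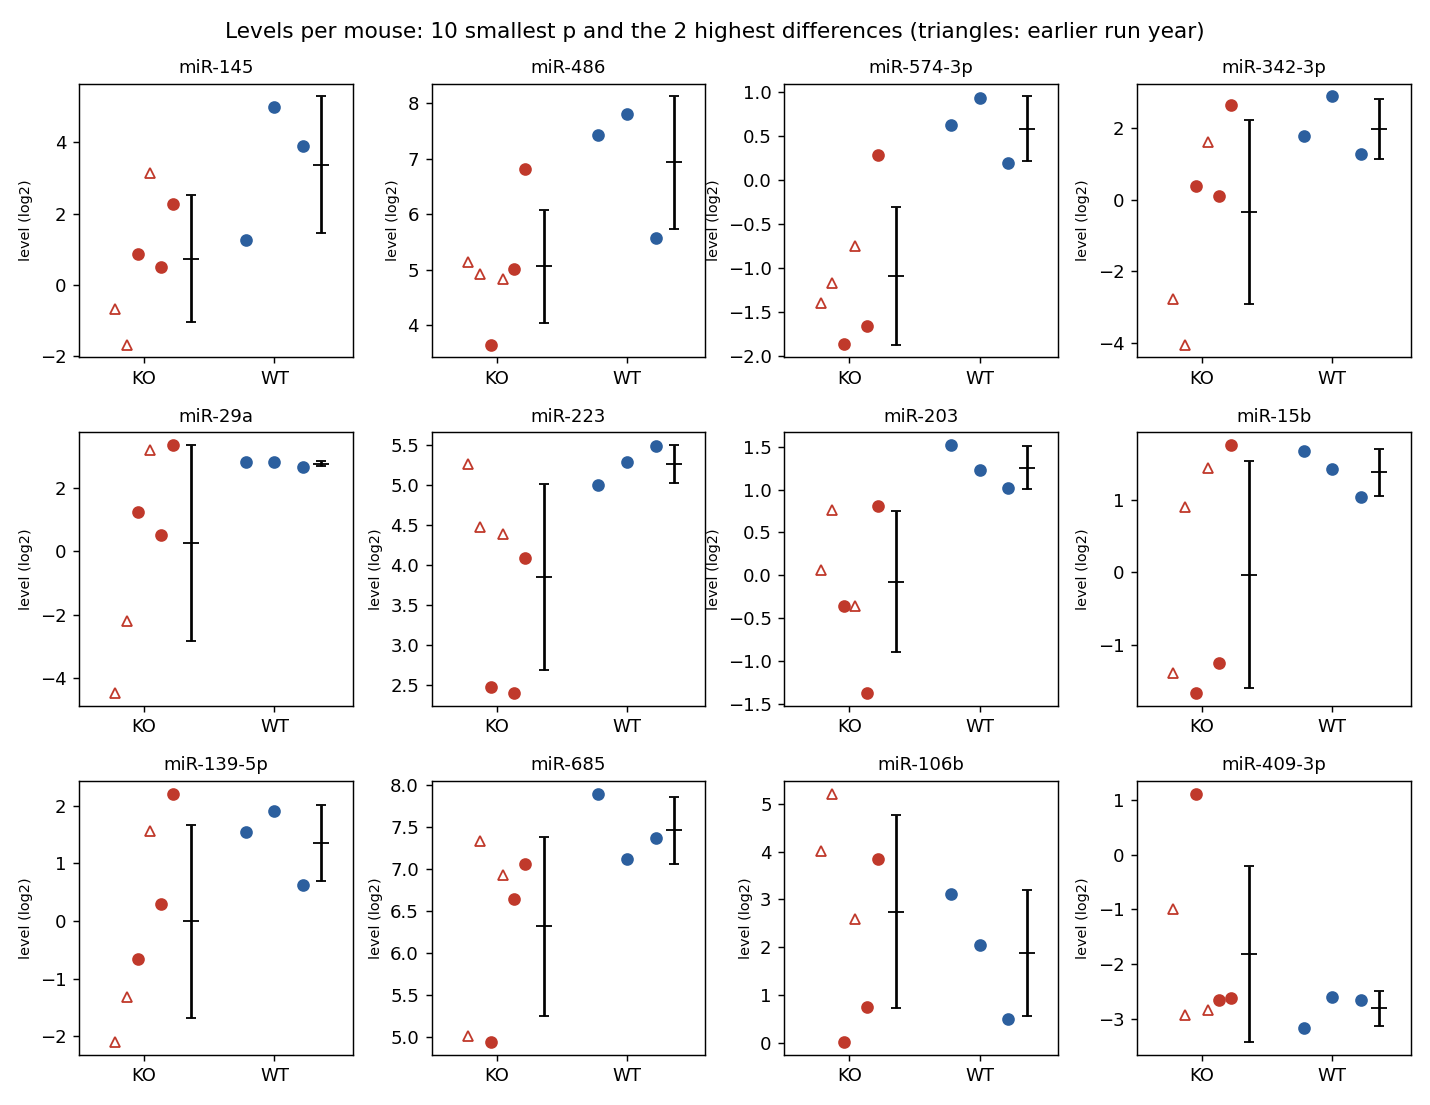
Level per mouse (log2) of the 10 microRNAs with the smallest p and of the 2 with the highest differences, with LS-G6pc-/- mice (KO, red) left of WT mice (blue), triangles for cards of the earlier run year and bars for the mean ± SD; each panel has its own axis. For miR-29a and miR-342-3p, 2 of the 3 triangles sit below every other mouse, at -4.47 and -2.20 and at -2.77 and -4.05.

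miR-29a and miR-342-3p differed mainly through 2 mice. miR-29a, which represses collagen genes, was at -4.47, -2.20, 1.25, 3.18, 0.50 and 3.34 in LS-G6pc-/- mice 1 to 6, against 2.82, 2.80 and 2.66 in WT mice. Mice 1 and 2, both of the earlier year, were far below all others, and mice 4 and 6 were above all 3 WT mice. The difference was -2.49 (standard error 1.29, adjusted p = 0.691, limma), -1.06 in the later year and -0.69 without mice 1 and 2. miR-342-3p, a leukocyte microRNA, was at -2.77, -4.05, 0.38, 1.61, 0.09 and 2.65 in LS-G6pc-/- mice 1 to 6, against 1.77, 2.90 and 1.28 in WT mice. Again mice 1 and 2 were lowest, and mice 4 and 6 lay inside the WT range. Its difference was -2.33 (standard error 1.17, adjusted p = 0.691, limma), -0.94 in the later year and -0.80 without mice 1 and 2.

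Within 1 card the reference cancels, so wells can be set against each other without any subtraction, and mice can then be compared. miR-29a minus miR-29c, which have the seed shown above in common, was -1.31 and -1.32 in LS-G6pc-/- mice 1 and 2 and 4.13 and 4.29 in mice 4 and 6, against 3.90, 4.14 and 4.76 in WT mice. In LS-G6pc-/- mice 3 and 5 the Ct of miR-29c was above 32. Mice 4 and 6 lay within the WT values, and mice 1 and 2 were lower than every WT mouse by more than 5. miR-486 minus miR-451, both red cell microRNAs, was -1.08, -3.38, 0.62, -1.46, 1.33 and -0.87 in LS-G6pc-/- mice 1 to 6, against 0.91, 1.96 and 1.00 in WT mice. All LS-G6pc-/- mice of the earlier year lay below the WT range, as did mice 3 and 6 of the later year, and mouse 5 lay inside it. Over the whole series, cards of that later year had a median of 0.449 in 11 LS-G6pc-/- and -0.772 in 17 WT mice. These WT mice ranged from -2.93 to 1.96. In the second of the 3 run years the median was -1.40 in 26 LS-G6pc-/- mice, and the 1 WT mouse was at 0.448.

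miR-203, which is enriched in squamous epithelium, was the 1 microRNA of 58 whose values did not overlap between the genotypes (1.72% lower and 0.0% higher). It was at 0.07, 0.76, -0.35, -0.35, -1.38 and 0.81 in LS-G6pc-/- mice 1 to 6, against 1.52, 1.23 and 1.02 in WT mice. Every LS-G6pc-/- mouse was below every WT mouse, the closest pair being 0.81 and 1.02. The difference of -1.33 (standard error 0.81, adjusted p = 0.691, limma) was -1.56 in the later year. With the mean of the assays measured on all 9 cards subtracted it was -0.51 (unadjusted p = 0.341).

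miR-223, of myeloid cells and platelets, was at 5.26, 4.47, 2.48, 4.39, 2.40 and 4.09 in LS-G6pc-/- mice 1 to 6, against 5.0, 5.29 and 5.48 in WT mice. Mouse 1 alone lay inside the WT range, and mice 3 and 5 were lowest. Its difference was -1.41 (standard error 0.85, adjusted p = 0.691, limma), and -2.27 in the later year (unadjusted p = 0.0363, with the shared standard error), where the groups did not overlap. In that year 5 of the 58 microRNAs were lower without overlap (8.62%) and 0 higher (0.0%), and the others were let-7b, miR-24, miR-203 and miR-685. All 5 were lowest in mouse 3 or mouse 5, whose cards were the least filled. These mice lay below all 3 WT mice for 55 and 50 of the 58 microRNAs, so this is not particular to the 5.

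miR-15b, which restrains the cell cycle, was at -1.40, 0.91, -1.68, 1.45, -1.25 and 1.77 in LS-G6pc-/- mice 1 to 6, against 1.68, 1.43 and 1.05 in WT mice. The LS-G6pc-/- mice fell into 3 low and 3 near the WT range, so the groups overlapped. Its difference was -1.42 (standard error 0.93, adjusted p = 0.691, limma), and -1.77 in the later year. miR-139-5p, at -2.10, -1.31, -0.66, 1.56, 0.30 and 2.20 in LS-G6pc-/- mice against 1.54, 1.90 and 0.62 in WT mice, had mouse 4 inside the WT range, mouse 6 above it and the other 4 below, and a difference of -1.36, against -0.74 in the later year and -0.50 without mice 1 and 2. miR-685, among the assays with the lowest Ct, was at 5.01, 7.33, 4.94, 6.94, 6.65 and 7.06 in LS-G6pc-/- and 7.90, 7.12 and 7.37 in WT mice, a difference of -1.14, and -1.25 in the later year.

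The 7 microRNAs with a higher mean in LS-G6pc-/- mice were led by miR-409-3p, of the imprinted Dlk1-Dio3 cluster. Its level was -0.99, -2.92, 1.11, -2.84, -2.65 and -2.62 in LS-G6pc-/- mice 1 to 6, against -3.16, -2.59 and -2.65 in WT mice. Mice 1 and 3 were high, and the other 4 lay inside the WT range. Its difference was 0.98 (standard error 0.93, adjusted p = 0.691, limma), and 1.41 in the later year.

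miR-106b, of the miR-17 clusters, was at 4.02, 5.21, 0.02, 2.60, 0.76 and 3.84 in LS-G6pc-/- mice 1 to 6, against 3.11, 2.05 and 0.50 in WT mice. Mice 1, 2 and 6 were above the WT range and mouse 3 below it. The difference of 0.86 (standard error 1.06) turned to -0.35 in the later year and was -0.08 without mice 1 and 2. miR-192, typical of hepatocytes, was found at 1.65, 3.64, -0.68, 0.72, -0.51 and 3.11 in LS-G6pc-/- mice against 0.82, 1.26 and -0.58 in WT mice. Its difference was 0.82 (standard error 1.00, adjusted p = 0.691, limma), 0.14 in the later year and 0.16 without mice 1 and 2. With the mean of the assays measured on all 9 cards subtracted, miR-192 was at 1.64 (unadjusted p = 0.029) and miR-320 at 1.10 (unadjusted p = 0.029), and neither passed after adjustment. The other 4 with a higher mean were miR-320, miR-451, miR-126-5p and miR-195, at 0.28, 0.22, 0.18 and 0.03. In the later year miR-320 was at 0.28 again, while miR-451, miR-126-5p and miR-195 were at -0.84, -0.11 and -0.32.

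**Figure D4:**
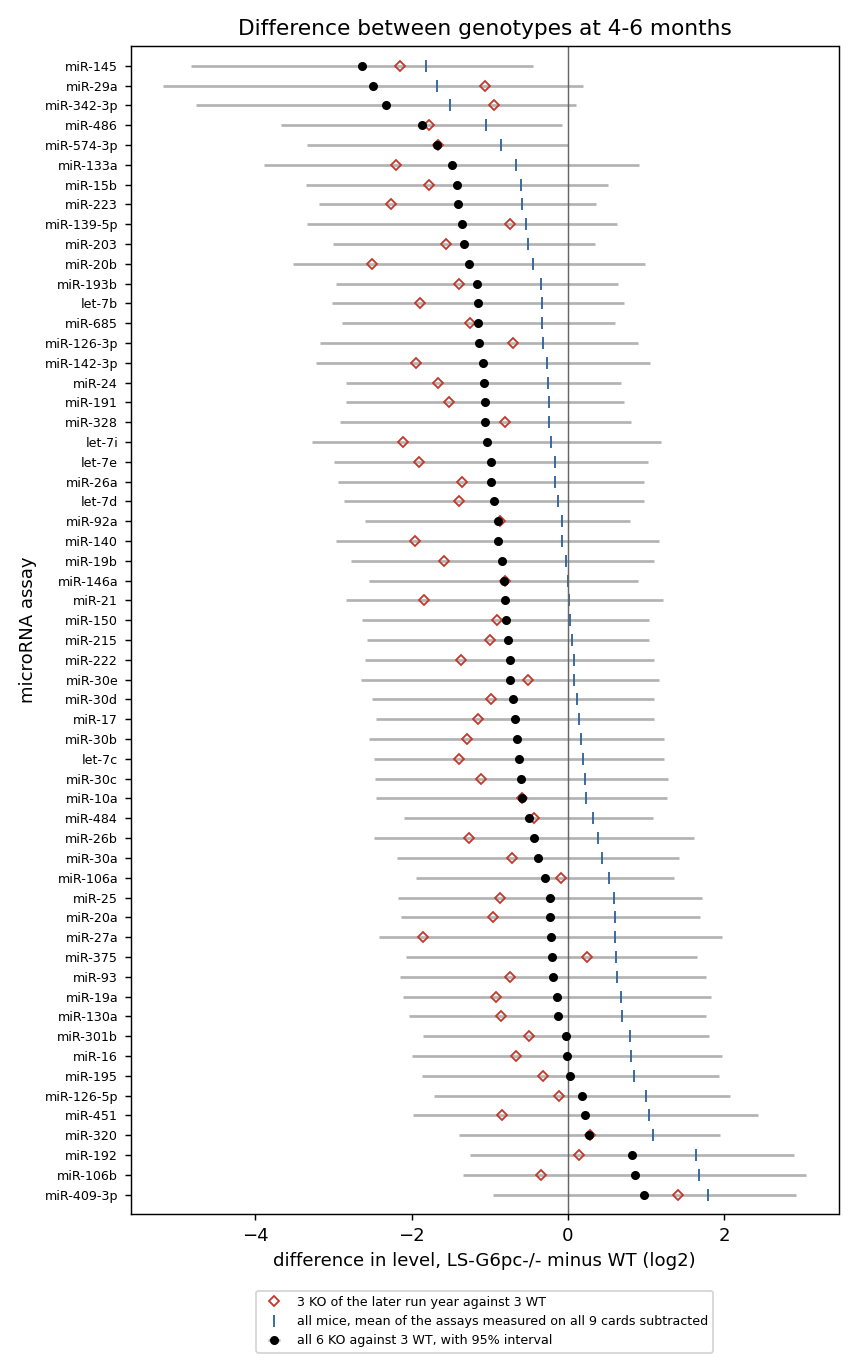
Difference in level between LS-G6pc-/- and WT mice (log2, LS-G6pc-/- minus WT) for the 58 microRNAs, with all 9 mice (black, bars for the 95% interval), with the later run year alone (red diamonds) and with the mean of the assays measured on all 9 cards subtracted (blue ticks). The intervals of 55 microRNAs cross 0, and the blue ticks lie around a median of 0.04 where the black points lie around -0.78.

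The miR-17 clusters had 10 of 13 members tested, 9 lower and 1 higher, with 0 past the threshold and a median of -0.26 against -0.78 for all 58. In the later year that median was -0.89, against -1.03 for all 58. Among the 6 tested members with the seed AAAGUGC, the differences were -1.26 for miR-20b, -0.67 for miR-17, -0.29 for miR-106a, -0.22 for miR-20a, -0.19 for miR-93 and 0.86 for miR-106b. miR-20b was at 1.26, 2.45, -2.01, 1.59, -2.63 and 2.51 in LS-G6pc-/- mice 1 to 6, against 2.19, 1.54 and 1.64 in WT mice. Mice 3 and 5 carried its difference, which was -2.50 in the later year (unadjusted p = 0.0211, limma). That p rests on the standard error shared by all microRNAs. The SD of miR-20b itself in that year was 2.81 in LS-G6pc-/- and 0.349 in WT mice. miR-106a was steadier, at 3.57 to 5.43 in LS-G6pc-/- mice, against 4.93, 4.62 and 4.54 in WT mice. The signs were mixed only with the earlier year included, since in the later year the 6 lay between -2.50 for miR-20b and -0.09 for miR-106a. miR-25 and miR-92a, neighbors of some of these genes with another seed, were at -0.23 and -0.90, and at -0.86 and -0.87 in the later year.

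The let-7 family, which represses Lin28 and parts of insulin signaling, had 5 of 9 members tested, all lower, with 0 past the threshold and a median of -0.99, or -1.89 in the later year. Over all 58 tested, 51 were lower, with a median of -0.78, or -1.03 in the later year. With the mean of the assays measured on all 9 cards subtracted, the median of the family was -0.17, against 0.04 for all 58. The 5 members of the family lay between -1.15 for let-7b and -0.62 for let-7c. let-7i, which the study named along with let-7d, was at -0.34, 2.18, -3.30, 1.97, -1.32 and 2.02 in LS-G6pc-/- mice 1 to 6, against 1.17, 1.04 and 1.52 in WT mice. Mice 2, 4 and 6 were above every WT mouse and mice 1, 3 and 5 below. Without mice 3 and 5 the median of the family was -0.05.

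The other families had few tested members and 0 past the threshold. All 5 members of the miR-30 family were tested, between -0.74 for miR-30e and -0.38 for miR-30a, with a median of -0.66, or -0.98 in the later year. miR-26a and miR-26b, which repress the chromatin enzyme Ezh2, were at -0.98 and -0.43, and at -1.36 and -1.26 in the later year. miR-24 and miR-27a, of 5 in the miR-23/27/24 group, were at -1.08 and -0.22, and miR-130a and miR-301b, of 4, at -0.13 and -0.02. In the later year miR-24 and miR-27a were at -1.66 and -1.85, and miR-130a and miR-301b at -0.86 and -0.49. In the miR-15/16 family, of which 3 of 6 were tested, miR-15b stood apart at -1.42, and miR-16 and miR-195 were at -0.01 and 0.03. The group of miR-99, miR-100 and miR-125 (5 assays), that of miR-148 and miR-152 (3) and the miR-34 family (3) had no member measured on all 9 cards. Of 41 assays for the Dlk1-Dio3 cluster, 30 were measured on no card and only miR-409-3p on all.

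Among hepatocyte microRNAs, miR-192 and miR-215 were tested and 0 of 2 passed. miR-215, with the seed of miR-192, was at -0.36, -2.25, -2.78, -0.52, -1.70 and -0.02 in LS-G6pc-/- mice 1 to 6, against 0.05, -0.04 and -1.53 in WT mice, a difference of -0.76, and -0.99 in the later year. On the linear scale the pair made up 0.691%, 0.903%, 0.363%, 0.263%, 0.288% and 0.579% of the summed level of the 58 in LS-G6pc-/- mice 1 to 6, against 0.222%, 0.295% and 0.118% in WT mice. LS-G6pc-/- mice 4 and 5 lay inside the WT range and the other 4 above it, and no test was made of this share. miR-122 makes up most of the microRNA of a hepatocyte and missed the range in LS-G6pc-/- mouse 3. Its raw Ct was 25.43, 20.63, 33.76, 28.80, 30.67 and 24.77 in LS-G6pc-/- mice 1 to 6, against 28.33, 28.32 and 29.59 in WT mice. Mice 1, 2 and 6 had lower Ct, and so more template, than every WT mouse, mouse 2 by more than 7 cycles, while mice 3 and 5 had less. The level of miR-192 was also highest in mice 1, 2 and 6. With miR-122 missing on 1 card no test was made. miR-194, miR-148a and miR-101a were measured on 5, 5 and 4 of 6 LS-G6pc-/- cards and on all 3 WT cards. The Ct of miR-101a was 27.98, 24.68, 33.14, 28.43, 32.59 and 26.99 in LS-G6pc-/- mice 1 to 6. In WT mice it was 28.60, 29.43 and 29.40. That of miR-194 was 30.82, 26.16, 34.62, 29.02, 31.95 and 27.84, against 29.69, 29.66 and 29.77. That of miR-148a was 30.33, 26.70, 33.12, 30.10, 31.52 and 28.38, against 29.30, 30.17 and 30.67. Mice 2 and 6 had lower Ct than every WT mouse in all 3 assays, and mice 3 and 5 higher.

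Red cell microRNAs were among those with the lowest Ct. miR-451 was at 6.21, 8.30, 3.04, 6.29, 3.68 and 7.67 in LS-G6pc-/- mice 1 to 6, against 6.52, 5.84 and 4.57 in WT mice, and miR-16 at 6.68, 7.52, 4.54, 6.99, 4.31 and 8.46 in LS-G6pc-/- mice, against 7.17, 6.19 and 5.92 in WT mice. Mice 3 and 5 were lowest and mice 2 and 6 highest in both. On the linear scale, miR-451, miR-486 and miR-16 together made up 18.5% to 40.1% of the summed level of the 58 in LS-G6pc-/- mice and 15.3% to 32.4% in WT mice. Of 4 red cell assays on the card 3 were tested, 2 were lower and 1 higher, and miR-363 was measured on 1 WT card alone. The median of the 3 was -0.84 in the later year. The part of red cell release in the other results was not tested.

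Platelet and leukocyte lists had lower medians. Of 5 platelet assays 4 were tested, all lower, with 0 past the threshold and a median of -1.11, and they made up 5.97% to 11.6% of the summed level in LS-G6pc-/- and 8.74% to 18.5% in WT mice. Of 8 leukocyte assays 5 were tested, all lower, with 0 past the threshold and a median of -1.09, and a share of 7.89% to 17.4% in LS-G6pc-/- and 12.5% to 18.7% in WT mice. miR-150, of mature lymphocytes, was at 4.37, 5.80, 3.94, 6.41, 4.92 and 7.05 in LS-G6pc-/- mice against 6.47, 6.99 and 5.17 in WT mice, a difference of -0.80. miR-142-3p, found in all blood lineages, differed by -1.09 and miR-146a, induced by inflammatory signaling, by -0.82. The medians of both lists are those of a card on which 51 of 58 were lower, and with the mean of the assays measured on all 9 cards subtracted they were -0.29 and -0.27. In the later year they were -1.59 and -0.94.

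Lists for other sources rested on 3 or fewer tested members, with 0 past the threshold in each. The endothelial miR-126-3p, miR-222 and miR-126-5p were at -1.14, -0.75 and 0.18, with 2.39% to 6.33% of the summed level in LS-G6pc-/- and 3.86% to 5.28% in WT mice. The muscle microRNA miR-133a was at -1.47, 3.75, -2.96, -2.21, -1.80 and 0.57 in LS-G6pc-/- mice 1 to 6, against 2.05, 0.18 and 0.18 in WT mice. Mouse 2 was higher than any WT mouse and 4 mice were lower, with a difference of -1.49. It was -2.20 in the later year (unadjusted p = 0.0425, limma with the shared standard error) and -2.40 without mice 1 and 2. miR-375, of pancreatic islets, was at -0.21, and at 0.25 in the later year. miR-145 was the 1 tested of 5 smooth muscle assays and miR-203 the 1 tested of 8 epithelial assays. No neural assay of 7 was measured on all cards, and miR-124, which defines neurons, was measured on none.

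The study named 14 microRNAs on the series that holds these mice, so their values here are no independent evidence of a direction. They come from different comparisons, and the paper ties miR-21, miR-150 and miR-345-5p to amyloidosis among LS-G6pc-/- mice alone. Of the 14, 12 were tested, 10 were lower, 2 higher and 0 past the threshold, with a median of -1.06 and with 2 at an unadjusted p under 0.05. Over all 58 tested, 51 were lower and 7 higher, with a median of -0.78 and 3 at an unadjusted p under 0.05 (limma). miR-21, which is raised in many inflamed tissues, was at 3.07, 3.15, -0.67, 3.22, 0.28 and 3.64 in LS-G6pc-/- mice 1 to 6, against 2.88, 3.0 and 2.88 in WT mice. LS-G6pc-/- mice 1, 2, 4 and 6 were above all WT mice and mice 3 and 5 were below, which left a difference of -0.81, and of -1.84 in the later year. let-7d was at -0.95, and at -1.40 in the later year. The median of the 12 in that year was -1.58, against -1.03 for all 58.

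miR-744 and miR-345-5p, the 2 named microRNAs that were not tested, each missed the range on 1 LS-G6pc-/- card. The raw Ct of miR-744 was 28.95, 24.55, 30.44, 26.95, 32.10 and 25.55 in LS-G6pc-/- mice 1 to 6, against 26.12, 26.996 and 26.62 in WT mice. Mice 1, 3 and 5 had higher Ct than every WT mouse, and mice 2 and 6 lower. That of miR-345-5p was 29.29, 24.85, 33.82, 26.89, 31.10 and 26.06 in LS-G6pc-/- mice, against 26.15, 27.38 and 28.44 in WT mice, with the same 3 mice highest.

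Detection told the 2 genotypes apart in no assay after adjustment. Of the 135 assays measured on 1 to 8 cards, 0 passed at an adjusted p under 0.05 (0.0%, two-sided Fisher's exact test with Benjamini-Hochberg adjustment), 3 had an unadjusted p under 0.05, and the smallest adjusted p was 0.804. A larger share of LS-G6pc-/- cards measured 32 of them, a larger share of WT cards 95, and the shares were equal for 8. Of the 67 assays measured on all 3 WT cards but not on all 6 LS-G6pc-/- cards, 61 were missing on LS-G6pc-/- mouse 3 or mouse 5, and 32 were measured on all 4 other LS-G6pc-/- cards.

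miR-214, a microRNA of mesenchymal cells and hepatic stellate cells whose sequence is given above, was measured on 0 of 6 LS-G6pc-/- cards and on 3 of 3 WT cards (Fisher's exact test, p = 0.0119, the smallest this design allows, adjusted p = 0.804). Its gene lies at chr1:162223438-162223459 on the plus strand, inside the spans of Dnm3 and the long noncoding RNA Dnm3os. The raw Ct was 33.46 in LS-G6pc-/- mouse 1, 33.75 in mouse 2, none in mouse 3, and 33.03, 35.19 and 34.17 in mice 4 to 6, against 31.22, 31.31 and 31.77 in WT mice. No value overlapped, also on the well-filled cards of mice 2, 4 and 6. All 3 WT mice lay within 1 cycle of the limit of 32, and LS-G6pc-/- mice 1, 2 and 4 within 2 cycles. miR-145, miR-143 and miR-199a-3p of the same cell types were measured on 6, 5 and 4 of 6 LS-G6pc-/- cards and on all 3 WT cards, and miR-10b on 0 cards. The Ct of miR-199a-3p was 30.745, 29.42, 33.85, 29.10, none and 28.79 in LS-G6pc-/- mice 1 to 6. In WT mice it was 28.45, 29.48 and 29.96, so the groups overlapped.

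miR-340-3p, within Rnf130 at chr11:50069762-50069783 on the plus strand, was in range on 1 of 6 LS-G6pc-/- cards and 3 of 3 WT cards (Fisher's exact test, p = 0.0476, adjusted p = 0.930). Its Ct was 32.69, 35.26, 33.55, 32.09, none and 31.19 in LS-G6pc-/- mice 1 to 6, against 30.16, 30.89 and 29.81 in WT mice, again without overlap. The other arm, miR-340-5p, did overlap. Its Ct was 30.68, 29.46, 35.16, 30.53, 36.665 and 28.77 in LS-G6pc-/- mice 1 to 6, against 29.70, 30.16 and 31.55 in WT mice. In detection, miR-546 had the opposite pattern to miR-340-3p, with 6 of 6 LS-G6pc-/- and 0 of 3 WT mice (p = 0.0119, adjusted p = 0.804, same test). Its Ct was 26.99, 24.70, 30.54, 31.78, 31.31 and 30.99 in LS-G6pc-/- mice, against 32.43, 33.06 and none in WT mice. Mice 3 to 6 were within 1.5 cycles of the limit, and mice 1 and 2 stood well below it. In the later year alone 3 against 3 cards cannot reach a p under 0.05 in this test.

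**Figure D5:**
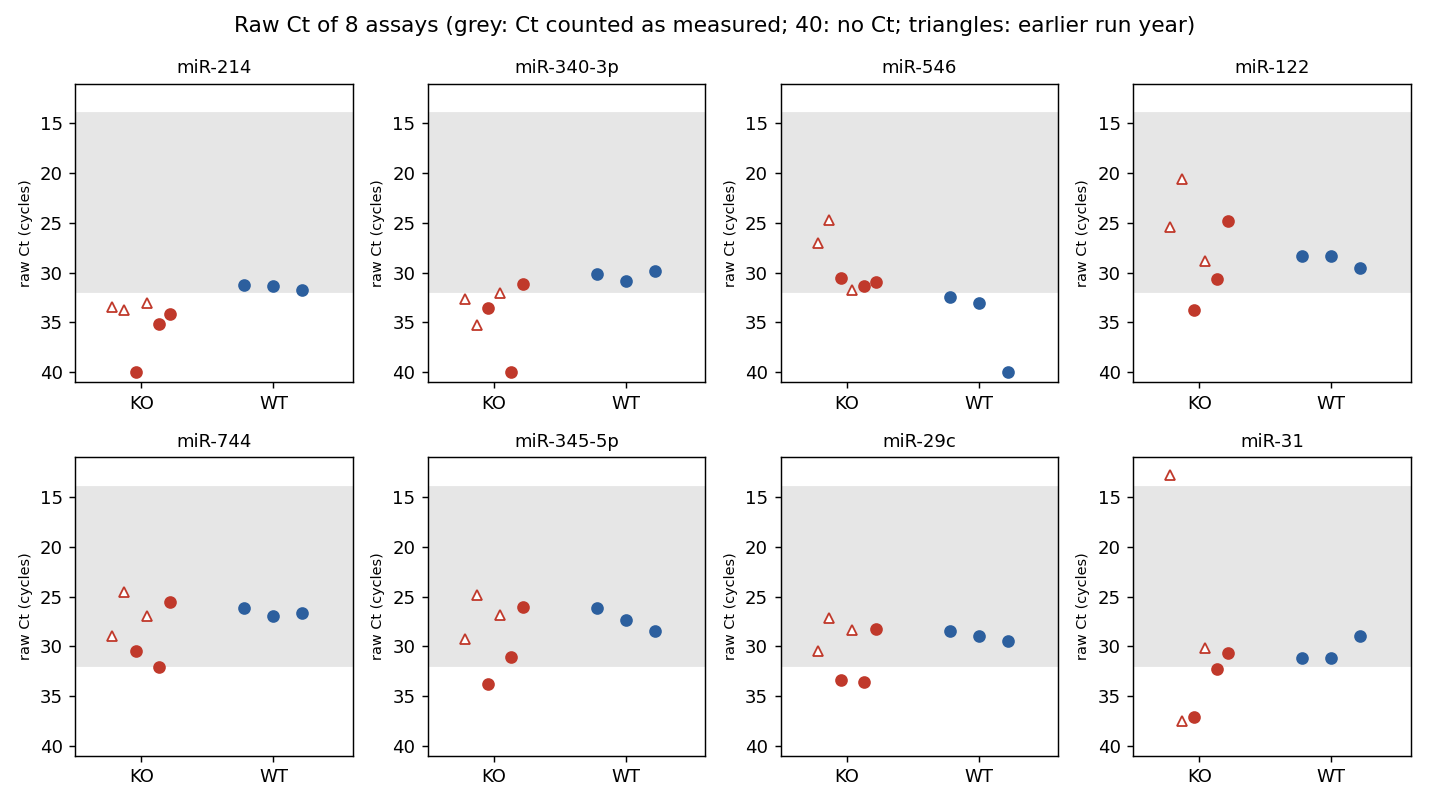
Raw Ct in cycles (axis inverted, so higher on the page is more template) of 8 assays not measured on all 9 cards, with LS-G6pc-/- mice (KO, red) left of WT mice (blue), triangles for cards of the earlier run year, grey for the range counted as measured and 40 for a well without a Ct. For miR-214 all LS-G6pc-/- mice lie at 33.03 or above and all WT mice at 31.77 or below, and for miR-546 the WT mice lie at 32.43 or above.

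The 13 assays in which LS-G6pc-/- mice 1 and 2 were ahead of all other cards by more than 4 cycles were led by miR-188-5p. Its Ct was 11.98 and 10.79 in these mice, under the limit of 14, where the lowest of the 7 other cards was at 27.45. miR-224 had a Ct of 20.18 and 19.46 in mice 1 and 2, and the lowest of the others was 30.86. miR-381 had a Ct of 22.54 and 19.57 and miR-139-3p of 24.68 and 22.25 in these mice, with lowest values of 32.82 and 33.70 on the other cards. miR-155, of activated leukocytes, had a Ct of 19.48 and 18.89 in mice 1 and 2 and of 31.58, 29.68, 32.54 and 27.69 in mice 3 to 6, against 30.29, 29.01 and 29.38 in WT mice. The other 8 were miR-380-5p, miR-208b, miR-367, miR-137, miR-669a, miR-129-3p, miR-434-5p and miR-491, ahead by 5.02 to 12.9 cycles. miR-31, of epithelia, had a Ct of 12.77 in mouse 1 alone, and of 37.56, 37.09, 30.12, 32.24 and 30.69 in mice 2 to 6, against 31.19, 31.20 and 28.95 in WT mice. The 7 assays in which both were behind all others were miR-145, miR-342-3p, miR-29a, miR-186, miR-434-3p, miR-598 and miR-743b-5p, by 0.144 to 2.50 cycles. All of these were picked after the values were seen.

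The difference at 4-6 months was then set against that at the 5 other ages in 1 fit over the 63 mice, with 61 microRNAs tested. In 0 of them (0.0%) did it differ from the mean of the other ages at an adjusted p under 0.05, and 0 had an unadjusted p under 0.05 (smallest p 0.0683, smallest adjusted p 0.976, limma). The contrast is not one of age alone. LS-G6pc-/- mice labeled with a tumor are among the oldest age groups, and the paper reports amyloid in most of its older LS-G6pc-/- mice. That fit also leaves out the run year. Over the series the 3 years held 8, 26 and 11 cards of LS-G6pc-/- and 0, 1 and 17 of WT mice, and at 1-3 and 7-9 months no LS-G6pc-/- card shared its year with a WT card, so year and genotype cannot be told apart there. With the year as a block 1 of the 61 had an unadjusted p under 0.05 and the smallest adjusted p was 0.938. miR-574-3p came first, with -1.67 at 4-6 months and a mean of -0.09 at the other ages (0.27, -0.70, -0.14, -0.74 and 0.86 from the youngest to the oldest). miR-106b was at 0.86 at 4-6 months and -0.88 on average at the other ages, and miR-451 at 0.22 and -1.14. miR-29a was at -2.49 at 4-6 months, and at the other ages between -5.52 and -1.44. miR-203 was at -1.33 at 4-6 months, and between -2.85 and -0.12 at the other ages. The median difference of all 61 was -1.63, -0.81, -0.57, -0.27, -0.67 and -0.94 in the 6 age groups in order of age, each with 3 WT mice of its own.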

How the data were processed

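RNA of plasma exosomes was reverse transcribed, pre-amplified and read on TaqMan rodent A cards, 1 per mouse. Raw Ct values, a log2 quantity that falls as template rises, were deposited as a table in which 40 marks a well without a Ct and as 1 file per card with a threshold of 0.1. Both held equal Ct in all 24192 wells of the 63 cards. The authors also deposited log2 values normalized with PIPE-T by subtracting the mean measured Ct of the mouse (Ct from 14 to 32). Levels computed here from the raw Ct differed from these by at most 0.0275. No read counts exist for these data, and precision rests on the number of mice and of measured wells.

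Assays missing in at most 5% of mice are kept by the methods, which over 9 mice leaves those measured on all 9 cards. Genotypes were compared in R 4.3.3 by a linear model of limma (3.58.1), p-values were adjusted by Benjamini-Hochberg over all assays tested, and a threshold of 0.05 was used. This stands in for the rank product of the study. The interaction with age was fitted over all 63 mice in 12 groups, and a missing value there was set to the lowest level of the assay minus 1. Cards were compared by exact permutation tests and detection by Fisher's exact test, all two-sided. The fit was tested on simulated data. Python (version 3.11.15), scipy (version 1.17.1), pandas (version 2.3.3), numpy (version 2.4.6) and matplotlib (version 3.10.9) were used.

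Named were the 10 assays with the smallest p, those without overlap, the 8 highest in each genotype, assays found in nearly 1 genotype alone, the 5 smallest p of the interaction, the microRNAs named by the study, up to 4 members of each list, controls, and assays sharing a seed with these. These members and lists were chosen with earlier results of these data known. Alternatives were other references, limits of Ct, filters, sample weights, run year as a block or alone, a test without moderation, and leaving out 1 mouse at a time. Those without the 2 least filled cards, those without LS-G6pc-/- mice 1 and 2, those that change the reference for a subset of cards, and detection with 1 mouse left out were chosen after seeing the data. The same mouse numbers in the 2 genotypes name different animals.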

Additional observations from a re-analysis of the deposited data

Results flagged for a closer look

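In LS-G6pc-/- mouse 1 all 4 wells of U6 were the lowest among the LS-G6pc-/- mice, and 2 of them lay far from the others. Its level was 3.86 in the U6 well at B11, where the other 5 mice were at 6.72 to 8.04, and 3.96 in the well at B12, where they were at 6.83 to 8.01. In the wells at A11 and A12 its level was 3.50 and 3.66, where mouse 3 was next lowest at 5.04 and 3.89. At B11 and B12 the distance to the nearest mouse took up more of the range than Dixon's 95% critical value for 6 samples. Of 60 such groups of 6 examined, chance alone would mark about 1 in 20. The card had 120 measured wells and belonged to the earlier run year.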

How the results depend on the processing

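Over 30 alternative settings, 0 of the tested microRNAs passed an adjusted p of 0.05 in limma. The smallest adjusted p of a setting ranged from 0.0888, with all 193 assays measured on at least 1 card and missing values filled in (16 at an unadjusted p under 0.05, miR-205 first), to 0.896. The Ct of miR-205, an epithelial assay, was 31.48, 30.21, 31.94, 32.47, none and 31.47 in LS-G6pc-/- mice 1 to 6. In WT mice it was 28.81, 29.67 and 29.64, without overlap. Measured on 4 of 6 LS-G6pc-/- cards, it was not among the 58 tested, and it was picked after its values were seen. The median difference of -0.78 ranged from -1.11 to -0.47 when 1 mouse was left out, and was -0.07 without LS-G6pc-/- mice 3 and 5 and -0.75 without mice 1 and 2. It was 0.04 with the mean of the assays measured on all 9 cards subtracted, 0.01 with quantile normalization, 0.09 with the number of measured assays as a covariate and 1.22 with U6 subtracted, against -1.01 with the median Ct and -0.57 with a Ct of up to 35 counted as measured. The sign turned for 25 of the 58 microRNAs with the mean of the shared assays and for 48 with U6 and none of these differences was past the threshold. Of the 10 with the smallest p, miR-139-5p had a positive difference in 3 settings, miR-29a and miR-342-3p in 2, miR-145 in 0 and each of the others in 1. Sample weights (median -0.42) did not fully converge. The later year alone gave a median of -1.03. Run year as a block must give the same differences, since all 3 WT cards are of that year, and is no second check. The difference in measured wells lay between -31.5 and -16.3 with 1 mouse left out, and 0 assays differed in detection in every setting tried. A difference that was not past the threshold in the main comparison was compared by whether it moved by more than 1 standard error. Wells with a Ct near 32 move in and out of the measured range, which limits the detection results. No paired analysis was possible because every mouse had a single card and the numbers of the mice of the 2 genotypes are unrelated.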

Other observations

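The Ct of miR-29a against that of miR-29c, which needs no reference, differed between run years over the whole series. Written as miR-29a minus miR-29c in level, it was -2.06 to 1.18 on the 8 cards of the first year, all of LS-G6pc-/- mice and all under 2. On the 27 cards of the second year it was -2.23 to 8.95, with 6 cards under 2, all of LS-G6pc-/- mice, among them mice 1 and 2 of the comparison at 4-6 months. On the 28 cards of the third year it was 3.30 to 6.45, with 0 under 2, among them 11 of LS-G6pc-/- and 17 of WT mice. The first year held no WT card and the second held 1, so run year and genotype cannot be told apart there.

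In the wells of miR-667 and rno-miR-196c the median Ct was 32.03 and 32.8 in the first year, 17.9 and 32.9 in the second, and 14.02 and 27.7 in the third. For miR-667, 13 cards of the third year had a Ct under 14, which counts as not measured. In the comparison at 4-6 months, U87 gave a Ct in range on 1 card alone, that of LS-G6pc-/- mouse 2 (26.84).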
